A study of Mus musculus with 12 samples.

Results

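Described here are 8 genes that encode ion channels and a receptor controlled by inhibitory G proteins: the pacemaker channel genes Hcn2, Hcn3 and Hcn4, the potassium channel genes Kcnj3, Kcnj6 and Kcnj9, and the GABA-B receptor genes Gabbr1 and Gabbr2. They were taken by name as effectors of alpha2 adrenergic and GABA-B signalling, out of 55421 genes in the count table. No rule on their values was used, but earlier results of these data were known when they were chosen. The study sequenced polyA RNA from prefrontal cortex of wild-type male C57BL/6 mice aged 10 to 12 weeks, 2 h after fear training. All 4 groups were trained with 3 pairings of a tone and a 0.7 mA foot shock, and no untrained group is part of the comparisons. The PL Dex group (prelimbic cortex) and the IL Dex group (infralimbic cortex) received dexmedetomidine, a sedative agonist of alpha2 adrenergic receptors, at 40 µg/kg intraperitoneally in 10 ml/kg. The PL saline and IL saline groups received the same volume of normal saline. Each group holds 3 libraries. The extraction protocol names prelimbic tissue throughout whereas 6 titles name IL, and the titles were followed. The labels give each library a batch number that equals its sample number, but not whether samples came from separate mice, so p-values reflect the variation among the samples given, which may be technical.

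The members belong to 1 signalling route. The GABA-B receptor works only as a heterodimer, in which Gabbr1 binds GABA and Gabbr2 carries the protein to the cell surface and couples it to Gi/o proteins. The beta-gamma subunits released from Gi/o open GIRK channels, built from Kcnj3 (GIRK1), Kcnj6 (GIRK2) and Kcnj9 (GIRK3), and the potassium current that follows hyperpolarises the neuron; alpha2 receptors act on the same channels. HCN channels pass a depolarising inward current at rest and open more readily with cAMP, which Gi/o proteins lower through adenylyl cyclase; in prefrontal dendrites alpha2A receptors close them by that route.

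The 3 members called between the regions below, and Gabbr1, the partner of Gabbr2 that was not called, are shown with the bases before their RefSeq start, so that the upstream regions of genes that differ between the same tissues can be compared. Sequences are from the RefSeq promoter table (GRCm38.p6), 5′ to 3′ on the gene's strand, up to 250 bases long, with each CG dinucleotide in capitals. For Gabbr2 the 159 bases nearest the RefSeq start lie in an annotated exon and are not shown, which leaves 91.
Gabbr2, chr4:46991874-46991964, minus strand: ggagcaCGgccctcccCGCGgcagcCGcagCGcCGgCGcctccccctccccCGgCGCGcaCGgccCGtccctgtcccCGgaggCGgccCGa
Kcnj9, chr1:172329323-172329572, minus strand: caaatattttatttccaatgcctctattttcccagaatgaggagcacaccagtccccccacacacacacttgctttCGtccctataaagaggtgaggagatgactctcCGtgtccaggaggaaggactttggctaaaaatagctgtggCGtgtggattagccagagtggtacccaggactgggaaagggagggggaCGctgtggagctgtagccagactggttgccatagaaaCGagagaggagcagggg
Kcnj3, chr2:55435720-55435969, plus strand: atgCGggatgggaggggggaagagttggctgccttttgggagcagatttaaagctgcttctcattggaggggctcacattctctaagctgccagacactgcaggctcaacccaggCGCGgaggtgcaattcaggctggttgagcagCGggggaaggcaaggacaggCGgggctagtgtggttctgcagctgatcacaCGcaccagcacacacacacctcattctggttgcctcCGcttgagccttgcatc
Gabbr1, chr17:37045716-37045965, plus strand: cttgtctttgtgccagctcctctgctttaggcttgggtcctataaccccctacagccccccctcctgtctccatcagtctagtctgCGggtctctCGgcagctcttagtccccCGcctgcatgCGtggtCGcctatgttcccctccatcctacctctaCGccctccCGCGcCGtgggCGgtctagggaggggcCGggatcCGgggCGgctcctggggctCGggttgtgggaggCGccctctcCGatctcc

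The table matched 7 of the 8 members, Hcn3 being the one not matched. The full 250 bases before Gabbr2 held 37 CG dinucleotides at 80.8% GC, and 2.20% of 32851 promoters of that length held as many. The window before Gabbr1 held 16 CG, that before Kcnj3 held 7 and that before Kcnj9 held 5, against a median of 6 over all promoters. As many as Kcnj3 were held by 46.3% of promoters and as many as Kcnj9 by 55.6%. Of the members called between regions, Gabbr2 thus stood near the upper end of CG content and the other 2 near the middle. A high CG count was also found in members not called: Kcnj6 held 26 at its first start and Hcn4 25. As many as these were held by 9.59% and 10.7% of promoters. The 91 bases shown for Gabbr2 held 15 of its 37 CG. A search of both strands covered 5 motifs. GGGCGG, in 32.7% of all promoters, stood in the windows of Gabbr1 and Gabbr2, and also of Hcn2, Hcn4 and a second Kcnj6 start. The Gabbr2 sites, 117 and 13 bases before the start, lie in the exonic part of its window that is not shown. CCAAT, in 33.8%, stood in those of Kcnj3 and Kcnj9, and TATAAA, in 12.4%, in that of Kcnj9, 168 bases before the start. TGACG, in 17.8% of all promoters, was in none of the members' windows, and neither was the longer TGACGTCA, which contains it (1.55%).

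Library totals ran from 5419187 counts in IL Dex to 16530596 in IL saline, and all 8 members passed the low-count filter together with 20015 genes in all. Levels are CPM after trimmed-mean (TMM) scaling of the library sizes, or CPM per kilobase of exon where genes are compared with each other. PL and IL separated along the leading principal component (35.8% of the variance). On it, libraries 1 and 2 of PL Dex and library 1 of PL saline stood nearer IL, at scores of 22.5, 17.9 and 19.6. The other PL libraries had scores of 46.9 to 48.8, so PL Dex library 3 and PL saline library 1 each stood apart from their own group. Libraries also differed in how strongly counts depended on GC content: per 10 points of GC, the log2 count ran at 0.12, 0.10 and -0.070 in PL Dex, at -0.26, -0.32 and -0.077 in PL saline, at -0.0083, 0.047 and 0.20 in IL Dex and at 0.028, 0.093 and 0.14 in IL saline. The IL libraries and PL Dex 1 and 2 thus favoured GC-rich transcripts relative to PL saline 1 and 2. Results are therefore also given after a GC correction of each library, and without PL Dex library 3.

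Per kilobase, the GABA-B subunits were the most abundant members and Hcn4 the least. Gabbr1 led in every group, at 97.3 ± 0.947 CPM per kb in PL Dex, 90.1 ± 2.92 in PL saline, 94.8 ± 2.10 in IL Dex and 90.3 ± 1.32 in IL saline (SD, n = 3 each). Gabbr2 came next at 61.1 ± 3.01, 55.4 ± 7.92, 36.7 ± 4.79 and 33.6 ± 4.89 CPM per kb in PL Dex, PL saline, IL Dex and IL saline. Below it, Kcnj3 had 29.4 to 42.8 CPM per kb over the 4 group means, Hcn2 21.4 to 32.1 and Kcnj9 13.7 to 23.9. In PL the means of Hcn2 and Kcnj9 lay within 1 SD of each other, and in IL those of Gabbr2 and Kcnj3 and of Kcnj3 and Hcn2 did, so those neighbours in the order did not differ beyond their spread. Kcnj6 had 8.41 to 11.0, Hcn3 2.65 to 3.24 and Hcn4 1.19 to 1.97 CPM per kb. Hcn3 and Hcn4 rest on 41 to 235 counts a library, and their values carry the widest relative counting error.

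**Figure D1:**
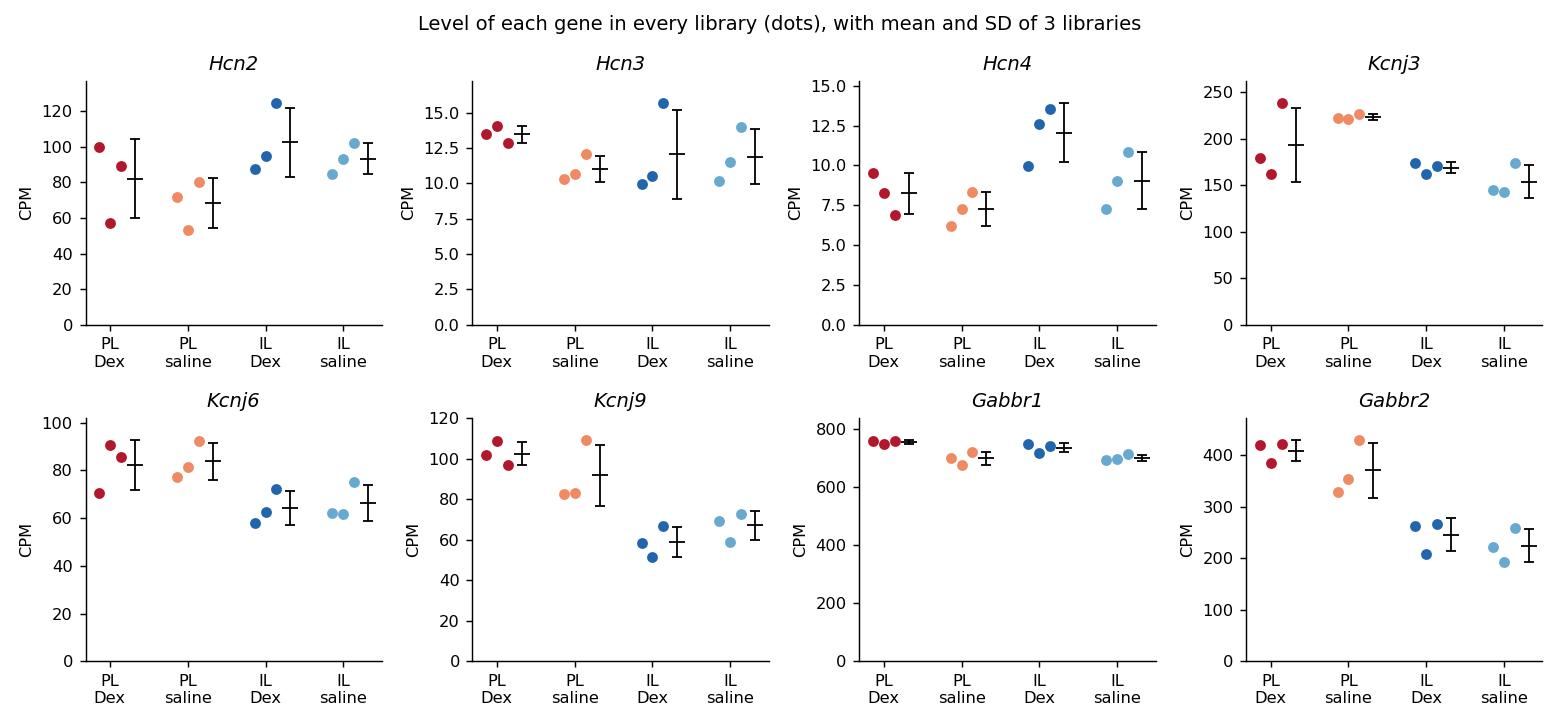
Level of each of the 8 genes in CPM (vertical axes, from 0) in every library (dots, in order of sample number) of the 4 groups, with the mean and SD of 3 libraries in black. Gabbr2 and Kcnj9 sit higher in every PL library than in any IL library, whereas Gabbr1 stays between 676.8 and 760.3 CPM throughout.

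The GABA-B receptor genes differed from each other across regions. Gabbr2 (chr4:46662305-46991873, minus strand, GRCm38) was higher in PL than in IL, by 1.66-fold after Dex and 1.65-fold after saline, while its partner Gabbr1 (chr17:37045966-37075067, plus strand) was not called in either comparison. Gabbr2 had 419.4, 385.5 and 421.3 CPM in PL Dex, against 262.8, 208.7 and 265.5 in IL Dex. It had 327.8, 353.3 and 429.6 CPM in PL saline, against 221.8, 193.4 and 258.6 in IL saline. Every PL library lay above every IL library. The log2 fold change was 0.73 (SE 0.124, edgeR adjusted p = 0.000926) for PL Dex against IL Dex and 0.72 (SE 0.123, edgeR adjusted p = 0.000562) for PL saline against IL saline. Both calls held in 20 of 20 other settings of the processing. Here and below, some of these settings left out a library outside the 2 groups compared, which hardly moves the estimate. Without IL saline library 1, for example, the value for PL Dex against IL Dex was again 0.73.

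Gabbr1, the GABA-binding subunit, had 758.5, 746.7 and 760.3 CPM in PL Dex, against 748.1, 717.2 and 741.8 in IL Dex. It had 699.8, 676.8 and 722.2 CPM in PL saline, against 694.7, 695.2 and 712.7 in IL saline. The regions overlapped under both treatments, with log2 fold changes of 0.038 (95% interval -0.13 to 0.21, edgeR adjusted p = 0.865) after Dex and -0.0025 (interval -0.17 to 0.17, edgeR adjusted p = 0.987) after saline. As a ratio of CPM per kb, Gabbr1 over Gabbr2 was 1.59 ± 0.0650 in PL Dex, against 2.61 ± 0.307 in IL Dex, and 1.65 ± 0.195 in PL saline, against 2.72 ± 0.362 in IL saline (SD, n = 3 each). The highest PL ratio was 1.84 and the lowest IL ratio 2.37, so the ratio did not overlap between regions.

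Among the GIRK genes, Kcnj9 was higher in PL under both treatments and Kcnj3 after saline. Kcnj9 (chr1:172320501-172329318, minus strand), whose product GIRK3 assembles with the other subunits, had 101.9, 108.6 and 97.0 CPM in PL Dex, against 58.3, 51.6 and 66.8 in IL Dex. In saline mice it had 82.8, 83.2 and 109.3 CPM in PL, against 69.4, 59.0 and 73.0 in IL. The PL libraries were above the IL libraries without overlap in both. The log2 fold change was 0.79 after Dex (SE 0.13, 1.73-fold, edgeR adjusted p = 0.000738) and 0.45 after saline (SE 0.127, 1.37-fold, edgeR adjusted p = 0.0181). The saline call was lost without PL saline library 3 (log2 0.30, adjusted p = 0.112) or IL saline library 2 (0.37, adjusted p = 0.106), and the Dex call held in 20 of 20 other settings. Its exons share 172 bases with Gm36937 on the other strand, which had 281 counts over all libraries.

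Kcnj3 (chr2:55435970-55598145, plus strand), the subunit that most neuronal GIRK channels contain, had 222.3, 220.7 and 226.4 CPM in PL saline, against 144.3, 142.5 and 173.8 in IL saline. All 3 PL saline libraries lay within a narrow band above IL saline. The log2 fold change was 0.54 (SE 0.12, 1.45-fold, edgeR adjusted p = 0.00424), called in 20 of 20 other settings. After Dex it had 179.6, 162.4 and 238.0 CPM in PL, against 173.3, 161.8 and 170.8 in IL, and PL libraries 1 and 3 stood above every IL library while PL library 2 lay within the IL range. That difference, log2 0.20 (SE 0.121, edgeR adjusted p = 0.4), was not called, and without PL Dex library 3 it was 0.028 (adjusted p = 0.923).

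Kcnj6 (chr16:94748636-94997701, minus strand), which encodes GIRK2, had 70.5, 90.6 and 85.8 CPM in PL Dex, against 58.1, 62.4 and 72.0 in IL Dex. It had 77.4, 81.5 and 92.3 CPM in PL saline, against 62.2, 61.6 and 75.1 in IL saline. Only the saline libraries were separated by region. The log2 fold change was 0.35 after Dex (edgeR adjusted p = 0.102) and 0.34 after saline (edgeR adjusted p = 0.0628), neither called. With the batch number as a block both were called, at 0.36 (adjusted p = 0.0399) and 0.34 (adjusted p = 0.027). After GC correction the saline value was called (0.34, adjusted p = 0.0454) and the Dex value was not (0.34, adjusted p = 0.0631). Its exons share 380 bases with Gm41505 on the other strand, which had 1534 counts in all.

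As shares of the summed GIRK level per kb, Kcnj9 made up 33.6% ± 4.53 in PL Dex, 28.3% ± 2.70 in PL saline, 25.1% ± 1.74 in IL Dex and 29.1% ± 1.74 in IL saline (SD, n = 3 each). Kcnj3 made up 51.3% ± 5.91, 57.1% ± 3.02, 59.4% ± 2.38 and 54.7% ± 1.33 in the same groups, and Kcnj6 15.1%, 14.6%, 15.4% and 16.1%. The Kcnj9 share of every PL Dex library (28.5% to 37.1%) exceeded that of every IL Dex library (23.5% to 27.0%), whereas the saline groups overlapped. These shares are descriptions, were given no test and were not corrected for GC content. The longest transcript has 57.2% GC for Kcnj9 and 43.9% for Kcnj3. With the GC correction, Kcnj9 in PL against IL was log2 0.83 after Dex and 0.73 after saline, against 0.79 and 0.45 as tested. Kcnj3 was 0.17 and 0.40, against 0.20 and 0.54 as tested.

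**Figure D2:**
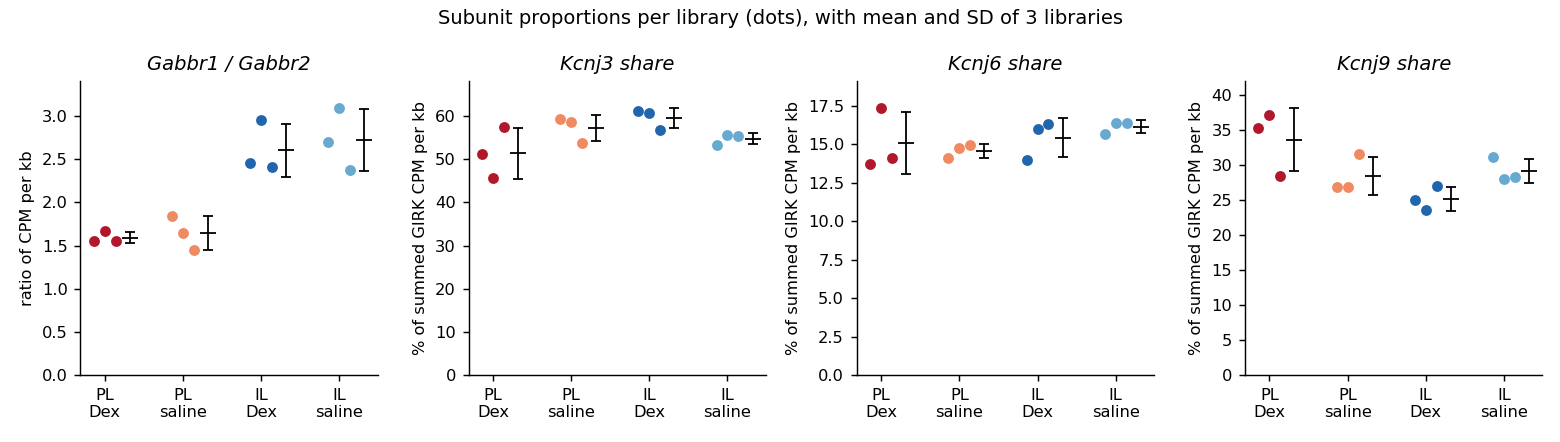
Ratio of Gabbr1 to Gabbr2 and the percent of the summed GIRK level held by Kcnj3, Kcnj6 and Kcnj9, all from CPM per kb, in each library (dots) with the mean and SD of 3 libraries in black. The Gabbr1 to Gabbr2 ratio stays at or below 1.84 in PL and at or above 2.37 in IL, while the Kcnj6 share lies between 13.7% and 17.4% in all groups.

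No HCN member was called between regions. Hcn2 (chr10:79716634-79736108, plus strand), which gives a channel that responds strongly to cAMP, had 71.8, 53.1 and 80.3 CPM in PL saline, against 84.7, 93.3 and 102.2 in IL saline. The groups did not overlap and the log2 fold change was -0.45 (SE 0.192, edgeR adjusted p = 0.115). That value depended on the processing: with the batch number as a block it was called at -0.47 (adjusted p = 0.029), and after GC correction it was 0.058 (adjusted p = 0.799). The longest Hcn2 transcript has 65.4% GC, the highest of the members. After Dex, Hcn2 had 100.0, 57.2 and 89.3 CPM in PL, against 87.8, 95.1 and 124.6 in IL, with log2 -0.32 (edgeR adjusted p = 0.392) and overlapping groups.

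Hcn4 (chr9:58823412-58863175, plus strand), the slowly opening isoform that responds to cAMP, had 9.52, 8.27 and 6.91 CPM in PL Dex, against 9.98, 12.6 and 13.6 in IL Dex. The groups did not overlap, and the log2 fold change of -0.56 (SE 0.215) had an unadjusted p of 0.0169 and an edgeR adjusted p of 0.133. In saline mice Hcn4 averaged 7.27 ± 1.05 CPM in PL and 9.04 ± 1.77 in IL (SD, n = 3 each), with log2 -0.31 (edgeR adjusted p = 0.319). Hcn3 (chr3:89146074-89160196, minus strand), an isoform largely insensitive to cAMP, averaged 13.5 ± 0.601 CPM in PL Dex and 12.1 ± 3.15 in IL Dex, and 11.0 ± 0.930 in PL saline and 11.9 ± 1.94 in IL saline. Its log2 fold changes of 0.14 and -0.11 were not called. Hcn2 took 84.2% to 87.1% of the summed Hcn2 to Hcn4 level per kb over the 4 group means. Hcn3 shares 711 exonic bases with Pklr on the other strand, which had 39 counts in all.

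Over the 8 members, 2 were called higher and 0 lower in PL Dex than in IL Dex, where 7.34% of all genes tested were called, 3.8% higher and 3.54% lower. For PL saline against IL saline, 3 were called higher and 0 lower, where 18.7% of all genes were called, 9.97% higher and 8.7% lower. The members' median log2 fold change was 0.17 in both comparisons, against -0.0097 over all genes after Dex and -0.025 after saline. The groups did not overlap in 3 members after Dex (21.6% of all genes) and in 5 after saline (40.3%).

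**Figure D3:**
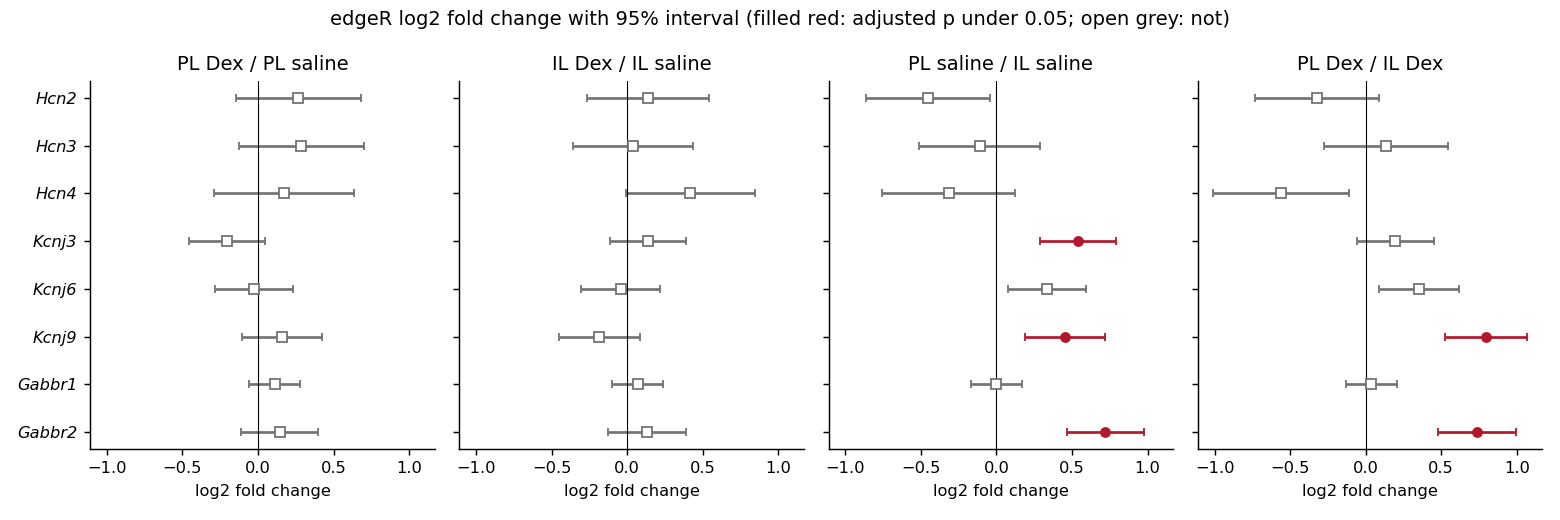
The log2 fold change of each gene with its 95% interval (bars) in the 4 comparisons named above the panels, filled red where the edgeR adjusted p is under 0.05 and open grey where it is not. Calls appear only for PL against IL, at 0.45 to 0.79, and every interval for Dex against saline includes 0.

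Marker genes of several cell types moved with region beside these values, while those of others did not. The summed level of 6 neuron markers was 5421 to 7477 CPM in PL Dex, against 4687 to 4915 in IL Dex, and 6795 to 7171 in PL saline, against 4392 to 4740 in IL saline. Of these, 2 were called higher after Dex and 4 after saline. All 6 had positive log2 values after Dex. After saline the means of Rbfox3 (153.7 CPM in PL, 164.7 in IL) and Tubb3 (179.3 and 186.0) were lower in PL. The 6 markers of cortical projection neurons summed to 4026 to 4414 CPM in PL Dex, against 2720 to 3599 in IL Dex, and to 3539 to 4198 in PL saline, against 2725 to 3359 in IL saline, with 4 called higher after Dex and 3 after saline. The 7 markers of striatal projection neurons summed to 149 to 280 CPM in PL Dex, against 742 to 1209 in IL Dex, and to 123 to 477 in PL saline, against 756 to 1005 in IL saline. Of these, 3 were called lower in PL after Dex and 4 after saline. The 5 markers of septum and ventral forebrain summed to 88.4 to 109 CPM in PL Dex, against 191 to 202 in IL Dex. In saline mice they summed to 87.4 to 112 CPM in PL, against 172 to 248 in IL. In each comparison 3 of the 5 were called lower in PL, while 2 had positive values after Dex and 1 after saline. The 6 inhibitory neuron markers summed to 451 to 563 CPM in PL Dex, against 812 to 1099 in IL Dex, and to 520 to 738 in PL saline, against 755 to 1020 in IL saline, and none was at 0 in any group. Of these, 3 were called lower and 1 higher in PL after Dex, and 2 lower and 1 higher after saline. The sums were carried by Gad1 and Gad2, the GABA-synthesis genes, whereas Vip was the one called higher in PL, at 34.2 ± 9.50 CPM in PL Dex and 19.8 ± 4.05 in IL Dex (SD, n = 3 each). Pvalb and Sst had positive values in both comparisons and were not called. The 4 upper layer markers had mean sums of 415 CPM in PL Dex and 414 in IL Dex. In saline mice these were 383 CPM in PL and 384 in IL. For the 6 deep layer markers the mean sums were 518 CPM in PL Dex and 569 in IL Dex. After saline they were 583 CPM in PL and 535 in IL. The 4 ependymal markers were near 0, at 1.90 to 2.86 CPM in PL Dex and 5.53 to 13.2 in IL Dex, and at 1.29 to 3.14 in PL saline, with 2 of 4 at 0, and 10.1 to 14.7 in IL saline. Among the astrocyte, oligodendrocyte, microglia and endothelial markers, 1 astrocyte gene was called lower in PL after saline, and none was called after Dex. The part of the marker differences in the values of Gabbr2, Kcnj9 and Kcnj3 was not tested. In bulk tissue fewer cells of a type and less RNA per cell cannot be told apart.

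**Figure D4:**
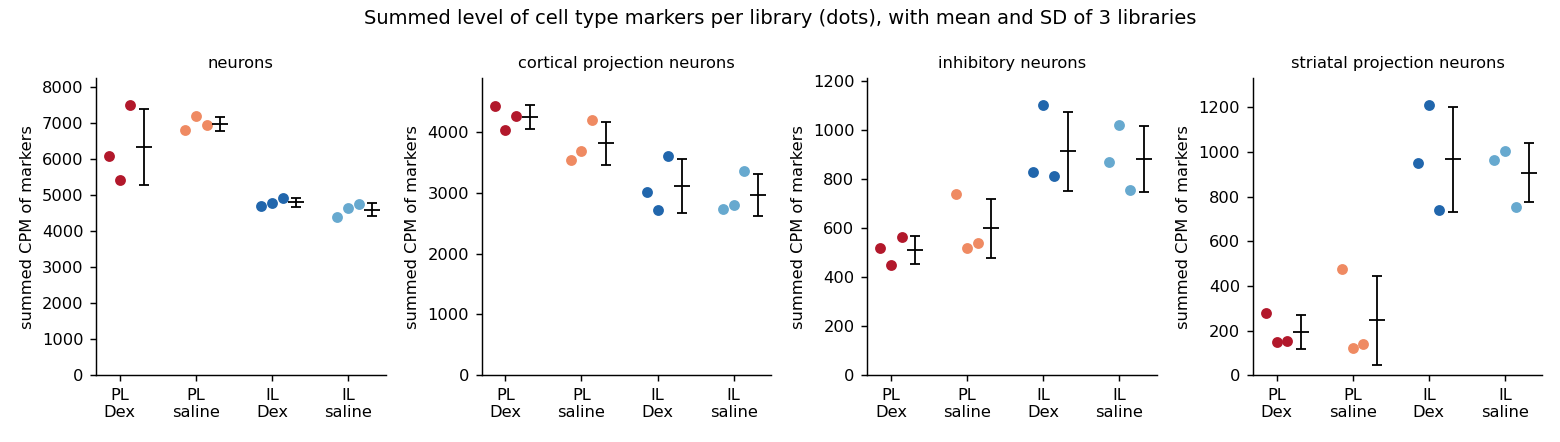
Summed CPM of the markers of 4 cell types (vertical axes, from 0) in each library (dots) of the 4 groups, with the mean and SD of 3 libraries in black. The sums of neuron and cortical projection markers are higher in PL (after saline, 4 of the 6 neuron genes were). The sums of inhibitory and striatal projection markers are higher in IL (for the inhibitory list, 3 of its 6 genes were not). The striatal sum is 742 CPM or more in every IL library, against 477 CPM or less in PL.

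The question of the study, whether dexmedetomidine changes expression after fear training, gave no call in this set. In PL, edgeR called 0 of the 8 members between Dex and saline, where 0.02% of all genes (4 of 20015) were called. At an unadjusted p under 0.05 it was also 0 members, against 13.9% of all genes, and DESeq2 called 0. Kcnj3 had the lowest adjusted p: with 179.6, 162.4 and 238.0 CPM in PL Dex, against 222.3, 220.7 and 226.4 in PL saline, libraries 1 and 2 were below every saline library and library 3 was above them. Its log2 fold change was -0.21 (SE 0.12, edgeR adjusted p = 0.449). Without PL Dex library 3 it was called, at -0.38 (SE 0.0968, adjusted p = 0.025), in a comparison that then called 1484 genes in all. With the GC correction added to that, it was -0.20 (adjusted p = 0.382) and not called.

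Gabbr1 was measured tightly enough for its 3 PL Dex libraries (746.7 to 760.3 CPM) to lie above all 3 PL saline libraries (676.8 to 722.2), yet the difference was log2 0.11 (95% interval -0.059 to 0.28, edgeR adjusted p = 0.545). Hcn3 had 13.5, 14.1 and 12.9 CPM in PL Dex, against 10.3, 10.7 and 12.1 in PL saline, again without overlap, at log2 0.29 (SE 0.198, edgeR adjusted p = 0.517). Of all genes tested, 14.4% did not overlap between these groups. Gabbr2 (0.14), Kcnj9 (0.16), Hcn2 (0.27), Hcn4 (0.17) and Kcnj6 (-0.027, all log2) overlapped and had adjusted p from 0.546 to 0.945. The members' median was 0.15, against -0.0025 for all genes, with 6 of 8 positive (49.7% of all genes).

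After GC correction 5 of those 6 positive values turned negative: Hcn2 was -0.11, Hcn4 -0.084, Kcnj9 -0.073, Gabbr2 -0.064 and Gabbr1 -0.026, and Hcn3 was 0.034. None was called before or after the correction. Between the regions the correction kept the calls. For PL saline against IL saline it raised the called values of Gabbr2 and Kcnj9, lowered that of Kcnj3 and added a call for Kcnj6 (0.34, edgeR adjusted p = 0.0454). Gabbr2 was then 0.97 (edgeR adjusted p = 8.39e-06), Kcnj9 0.73 (adjusted p = 5.52e-05) and Kcnj3 0.40 (adjusted p = 0.00982). The values not called rose too, Hcn2 from -0.45 to 0.058, Hcn4 from -0.31 to 0.0031, Hcn3 from -0.11 to 0.21 and Gabbr1 from -0.0025 to 0.15.

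**Figure D5:**
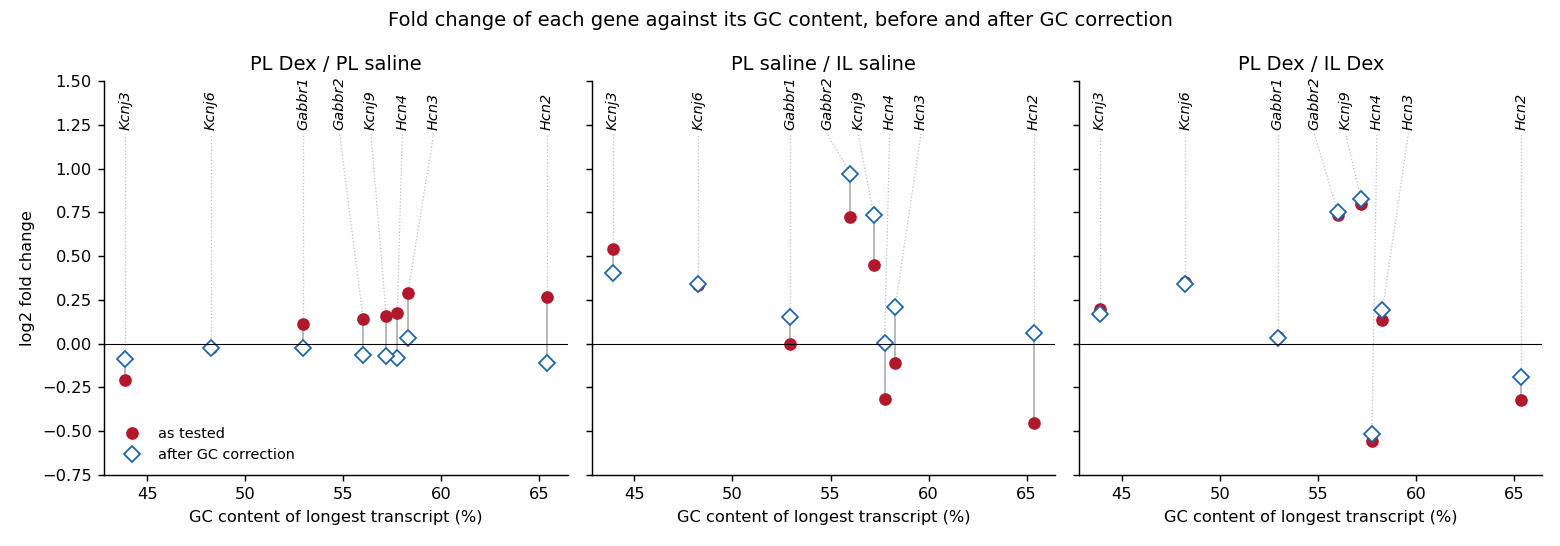
The log2 fold change of each gene (vertical axis) against the GC content of its longest transcript in percent (horizontal axis), as tested (red) and after GC correction of the libraries (open blue), with Hcn3 and Hcn4, both at 58.0% GC, drawn slightly apart. For PL Dex against PL saline the corrected values lie between -0.11 and 0.034, and for PL Dex against IL Dex the 2 values of each gene lie close together.

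In IL, edgeR called 0 of the 8 members between Dex and saline at an adjusted p of 1 for each, where 0% of all genes were called, and DESeq2 called 0. At an unadjusted p under 0.05 it was 0 members, against 1.06% of all genes. Hcn4 had the largest value: 9.98, 12.6 and 13.6 CPM in IL Dex, against 7.29, 8.99 and 10.8 in IL saline. Library 1 of IL Dex fell within the saline range, and the log2 fold change was 0.42 (SE 0.204, unadjusted p = 0.0536, edgeR adjusted p = 1). Gabbr1 again did not overlap, at 717.2 to 748.1 CPM in IL Dex and 694.7 to 712.7 in IL saline, with log2 0.070 (95% interval -0.099 to 0.24). Such a lack of overlap was seen in 7.78% of all genes. The remaining 6 members had log2 values from -0.18 (Kcnj9) to 0.14 (Hcn2).

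The difference between the Dex effects of PL and IL was tested directly, and edgeR called 0 of the 8 members (0% of all genes), as did DESeq2, with 0 at an unadjusted p under 0.05 (6.73% of all genes). The widest differences were in the GIRK genes and of opposite sign: 0.34 for Kcnj9 (SE 0.182, unadjusted p = 0.0728, edgeR adjusted p = 0.716) and -0.34 for Kcnj3 (SE 0.17, unadjusted p = 0.0588, edgeR adjusted p = 0.716). Without PL Dex library 3 they were 0.39 for Kcnj9 (edgeR adjusted p = 0.288) and -0.51 for Kcnj3 (adjusted p = 0.0597), neither called. After GC correction the difference was 0.092 for Kcnj9 (unadjusted p = 0.516) and -0.23 for Kcnj3 (unadjusted p = 0.117). The widest was then -0.52 for Hcn4 (SE 0.269, unadjusted p = 0.0664, edgeR adjusted p = 0.999). As tested without the correction, for Kcnj9 the Dex effect was 0.16 in PL and -0.18 in IL. For Kcnj3 it was -0.21 in PL and 0.13 in IL. The intervals of the other members ran as wide as -0.87 to 0.38 for Hcn4, so differences of that size could not be told from 0 with 3 libraries a group.

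Of 60 further genes of the route, 58 were tested. None was called for Dex against saline in PL or in IL, nor for the difference of these effects, by edgeR or DESeq2. At an unadjusted p under 0.05 there were 7 in PL (13.9% of all genes), 1 in IL (1.06%) and 6 for the difference (6.73%). Between regions, 12 were called higher and 9 lower in PL Dex than in IL Dex, where 7.34% of all genes were called, and 22 higher and 11 lower in PL saline than in IL saline, where 18.7% were. Of 4 HCN partners, 1 was called lower in PL Dex, and 1 higher and 1 lower in PL saline. Lrmp, which in cultured cells weakens the response of HCN4 to cAMP, was lower in PL Dex (log2 -2.01, edgeR adjusted p = 0.00439) at 0.794 CPM, against 3.18 in IL Dex. In saline mice Lrmp averaged 1.32 CPM in PL and 2.76 in IL.

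Of 7 GIRK partners, 6 were tested, and 4 were higher in PL saline and 1 in PL Dex. Rgs7, a GTPase activator that speeds the closing of GIRK channels, was higher in PL Dex (0.35, edgeR adjusted p = 0.0429) and in PL saline (0.45, adjusted p = 0.00474). Its membrane anchor Rgs7bp (0.53, adjusted p = 0.00735) and Rgs4 (0.71, adjusted p = 0.00783), another GTPase activator, were higher in PL saline. Neither was called after Dex, where Rgs7bp averaged 413.3 CPM in PL and 383.7 in IL, and Rgs4 425.2 and 294.3. Of 7 GABA-B partners, App, whose secreted form binds Gabbr1, was higher in PL Dex (0.40, adjusted p = 0.00888) and in PL saline (0.36, adjusted p = 0.00947). Kctd12, a subunit that makes GABA-B responses fade, was lower in PL Dex (-0.72, adjusted p = 0.000942). It was not called after saline, at means of 111.5 CPM in PL and 139.0 in IL.

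Of 15 receptors that couple to Gi/o, 14 were tested, with 5 higher and 2 lower in PL Dex and 6 higher and 4 lower in PL saline. The receptor not tested was Adra2b, a target of the drug, at group means of 0.0506 to 1.21 CPM. Among the lower were Adra2a and Adra2c, the other targets of the drug. Adra2a had 13.5 ± 2.08 CPM in PL Dex and 34.7 ± 13.3 in IL Dex (log2 -1.37, edgeR adjusted p = 0.00202), and 12.4 ± 2.64 in PL saline and 30.5 ± 6.88 in IL saline (-1.32, adjusted p = 0.00149, SD, n = 3 each). Adra2c followed at -0.92 after Dex (adjusted p = 0.025) and -1.26 after saline (adjusted p = 0.00183). The opioid receptor gene Oprd1 was higher in PL (0.87 after Dex and 0.79 after saline), as was the glutamate receptor gene Grm2 (0.94 and 0.80). Of this list, Drd2 is also one of the striatal markers above. The striatal and septal marker sums given above moved in the direction of Adra2a and Adra2c, and their part in these values was not tested.

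Of 13 G protein subunits, 2 were higher and 1 lower in PL Dex, and 6 higher and 2 lower in PL saline. Gng2, a common gamma subunit, was higher (0.63 after Dex and 0.66 after saline), and Gng7, the main gamma subunit of striatal neurons, was lower (-1.95 and -1.74). Of 14 enzymes that make or break down cAMP, 3 were higher and 4 lower in PL Dex and 4 of each in PL saline. The cyclase gene Adcy1 (0.91 and 0.65) and the phosphodiesterase gene Pde1a (0.86 and 1.08) were higher in PL after Dex and after saline, and the striatal cyclase gene Adcy5 (-1.47 and -1.51) and Pde1b (-1.46 and -1.52) were lower. The striatal marker sums given above moved in the direction of Gng7, Adcy5 and Pde1b, and their part in these values was not tested.

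The genes whose levels ran most like each member over the 12 libraries were searched among 9811 genes with a mean of at least 10 CPM. Gabbr2 was closest to Sorl1 (Pearson r = 0.994) and Chrm3 (0.987), Kcnj9 to Flot1 (0.984) and Adcy1 (0.974), and Kcnj3 to Rps6ka3 (0.976). Hcn2 was closest to Trim62 (0.965), Kcnj6 to Lhfp (0.957), Hcn3 to Smap2 (0.947) and Hcn4 to Acsbg1 (0.886). Pou6f1 (0.899) was among the 2 genes most like Gabbr1. These coefficients describe libraries that share region, batch and GC composition and carry no p.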

How the data were processed

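The values deposited by the authors are raw counts per gene. Per the file headers, featureCounts 2.0.1 counted read pairs over exons, without a strand option, on GRCm38 release 98. The submitters' processing notes further list SAMtools 1.8, HISAT2, Trim Galore and bcl2fastq, and name mm39 as the build. Gene coordinates in the table are those of GRCm38. Of the columns, 12 matched no sample and were not used. Counts cannot separate a gene from one overlapping it on the other strand.

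Counts were tested with edgeR 4.0.16 (R 4.3.3): filterByExpr over the 4 groups, TMM (factors 0.935 to 1.05), and a robust quasi-likelihood fit of 12 libraries with 1 mean per group, 8 residual degrees of freedom and a common biological coefficient of variation of 0.143. P-values are two-sided, adjusted by Benjamini-Hochberg over 20015 genes, with a threshold of 0.05. DESeq2 1.42.0 was an alternative. The code was tested on simulated data. The GC correction took a loess curve per library (span 0.5) on the GC content of the longest GENCODE M21 transcript, fitted on 16513 genes. Promoters came from the RefSeq table. Replicates differed beyond counting noise (chi-square per degree of freedom 3.85 to 14.5 over 12 pairs).

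The labels give each library a batch number equal to its sample number, so the numbers pair libraries across groups. Deviations from the group means of same-numbered libraries correlated at 0.284 to 0.337 between IL Dex and IL saline, at 0.00858 to 0.108 between PL Dex and PL saline, and at -0.0983 to 0.191 between regions. The members and lists were chosen with earlier results of these data known. The genes named are all members, up to 4 genes per list and comparison past the threshold by smallest p, and the genes most correlated with each member. For the listed genes, fold changes or mean levels are also given for the other comparison between regions. Some genes that this rule takes are not reported here.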

Additional observations from a re-analysis of the deposited data

How the results depend on the processing

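Each member was tested in 5 comparisons, and the 40 values were recomputed in 792 alternatives: 706 kept the sign and the side of the threshold, 68 changed sign, 16 gained a call and 2 lost one. The causes were not tested. For PL Dex against PL saline, 4 genes were called in all. The count was 0 with DESeq2's size factors in edgeR and 0 with only the 6 libraries compared, 140 with DESeq2, 193 without the low-count filter, 1 after GC correction, 2 with that and the replicate block, and 0 to 1484 leaving out 1 library, the highest without PL Dex library 3 and at most 8 without any other. An alternative chosen after seeing the data, GC correction without PL Dex library 3, called 63. Without the filter, 3 genes were called for IL Dex against IL saline and 4 for the difference of the Dex effects, against 0 each. For that difference the count ran from 0 to 144 leaving out 1 library, the highest without PL Dex library 3, and was 1 under the added alternative. PL Dex against IL Dex called 1469, 2328 with GC correction and the replicate block, and 783 to 1728 leaving out 1 library, the lowest without IL Dex library 2. PL saline against IL saline called 3737, and 1842 to 4649 leaving out 1 library, with 1842 without PL saline library 2 and 2367, 2128 and 2413 without IL saline library 1, 2 or 3.

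Sign changes touched no call. After GC correction, then with the replicate block added, then without PL Dex library 3 instead, the log2 values for PL Dex against PL saline were -0.11, -0.12 and -0.25 for Hcn2, -0.084, -0.071 and -0.012 for Hcn4, -0.073, -0.071 and -0.078 for Kcnj9, -0.026, -0.026 and -0.053 for Gabbr1, and -0.064, -0.069 and -0.13 for Gabbr2. For the difference of the Dex effects they were -0.25, -0.25 and -0.38 for Hcn2, -0.017, -0.0044 and -0.031 for Hcn3, -0.12, -0.12 and -0.15 for Gabbr1, and -0.22, -0.23 and -0.28 for Gabbr2, and Kcnj6 was -0.011 in the last setting. For PL saline against IL saline they were 0.058, 0.056 and 0.061 for Hcn2, 0.21, 0.21 and 0.21 for Hcn3, 0.0031, 0.0035 and 0.0057 for Hcn4, and 0.15, 0.15 and 0.15 for Gabbr1, which was also 0.0074 with DESeq2, 0.0017 with its size factors and 0.0020 with only the 6 libraries. Leaving out 1 library gave -0.027 to 0.022 for Gabbr1 and -0.21 to 0.025 for Hcn3 in that comparison. For the difference of the Dex effects it gave -0.10 to 0.14 for Gabbr2, -0.034 to 0.34 for Hcn2 and -0.082 to 0.12 for Kcnj6. For IL Dex against IL saline it gave -0.032 to 0.24 for Hcn2, -0.22 to 0.17 for Hcn3 and -0.14 to 0.056 for Kcnj6, and for PL Dex against PL saline -0.091 to 0.075 for Kcnj6.

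Of the calls gained, Kcnj6 in PL saline against IL saline accounts for 9 (adjusted p from 0.0134 to 0.0475), and Hcn2 there for 4, of which the lowest adjusted p was 0.0031, without the low-count filter. Leaving out PL Dex library 2, PL Dex library 3 or IL saline library 3 called Kcnj6 (adjusted p = 0.0475, 0.0415 and 0.0444), and leaving out PL Dex library 2 called Hcn2 (0.0405). The replicate block changed no member's call other than those of Hcn2 and Kcnj6 given above. Hcn4 rested on 41 to 182 counts and Hcn3 on 56 to 235 counts a library, and changes of these genes within their intervals could not be told from 0. For PL Dex against PL saline the SE of Hcn4 was 0.223, at 41 to 70 counts a PL library. It was 0.198 for Hcn3 at 68 to 100 counts and 0.195 for Hcn2 at 394 to 735. The parts of depth and of the spread among libraries in these intervals were not tested.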

Other observations

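Taken by sample number, Gabbr1 was higher in Dex than in saline in 3 of 3 pairs in PL (log2 ratios of CPM of 0.12, 0.14 and 0.074) and in 3 of 3 in IL (0.11, 0.045 and 0.058). After GC correction its fitted value was -0.026 in PL and 0.093 in IL, and no setting called it in either region. Hcn4 was higher in Dex in 3 of 3 pairs in IL (0.45, 0.49 and 0.32) and in 2 of 3 in PL (0.61, 0.19 and -0.27). Kcnj9 was lower in Dex in 3 of 3 pairs in IL (-0.25, -0.19 and -0.13), whereas in PL the pairs gave 0.30, 0.38 and -0.17. These ratios are descriptions of 3 pairs a region, were given no test and were singled out after their values were seen.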
